A study of Ganoderma lucidum with 6 samples.

Results

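Aminoacyl-tRNA synthesis was followed through the 33 genes, of 16113 in the deposited table, whose KEGG entry names that pathway. Of these, 29 are described as aminoacyl-tRNA synthetases, which together cover all 20 amino acids. The other 4 are a methionyl-tRNA formyltransferase, an amidase and a pair of gene models described as glutamyl-tRNA amidotransferase subunit B. The RNA came from day 3 mycelia of the wild type of Ganoderma lucidum, a bracket fungus that decays wood. The nitrogen salt was (NH4)2SO4 in 3 libraries (ammonium) and NaNO3 in the other 3 (nitrate). Sulfate and sodium change together with the nitrogen form, so their parts cannot be told apart. The series title concerns silencing of the transcription factor AreA, but every sample analysed here is wild type.

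An aminoacyl-tRNA synthetase joins an amino acid to its tRNA, and the charged tRNA brings that amino acid to the ribosome. Fungi translate in the cytosol and in mitochondria. Some amino acids have a separate nuclear gene for the mitochondrial enzyme, whereas in budding yeast other genes, such as those for the histidyl and valyl enzymes, supply both compartments. Mitochondria also formylate the initiator methionyl-tRNA, and an amidotransferase there converts glutamate loaded on the glutamine tRNA to glutamine. In yeast, uncharged tRNA activates the kinase GCN2, which links tRNA charging to the supply of amino acids.

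Total gene counts ranged from 19979528 to 27604895 per library, and members held between 112 and 6389 counts each. Their summed share of all counts was 0.239 to 0.261 percent in ammonium and 0.188 to 0.229 percent in nitrate. The libraries of a group differed along a shared axis that took up 62.4 percent of the variance within groups, with ammonium replicate 1 and nitrate replicate 1 at opposite ends. Nitrate replicate 1 was the lowest nitrate library in 23 of 33 members (69.7 percent), against 53.4 percent of all genes tested. Whether this axis has a part in the results below was not tested, and values without both end libraries are given beside the counts of each list and for members whose call changed. That fit keeps replicates 2 and 3 of each group. The libraries left out were picked as the ends of this axis, which narrows the spread within groups. It called 40.6 percent of all genes, beside 15.6 percent with all libraries. A pass in that fit alone is therefore not support for a difference. Separate cultures are not stated for the replicates in the labels. The p-values therefore reflect only how these libraries vary, which may be technical.

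On nitrate, 4 synthetase genes were lower and none of the 33 was higher. The lower genes were the phenylalanyl gene GL17358-G, with mitochondrial GO identifiers, the mitochondrial tryptophanyl gene GL16342-G, the glutamyl gene GL24500-G and an isoleucyl gene, GL25741-G, with levels of 0.475 to 0.589 of those in ammonium. In such bulk samples, fewer cells of a type and less RNA per cell cannot be told apart. All 33 genes passed the filter on low counts, and the other 29 did not pass at 0.05 after Benjamini-Hochberg adjustment over 11993 genes in edgeR's quasi-likelihood test. Among all genes tested, 15.6 percent were called, 8.13 percent lower and 7.5 percent higher, beside 12.1 percent of the members lower. At an unadjusted p under 0.05 there were 10 members lower (30.3 percent, beside 15.9 percent of all genes tested) and none higher (16.0 percent of all genes). DESeq2 called 8 lower (24.2 percent, beside 10.8 percent of all genes) and none higher (10.7 percent of all genes). The count of 4 depended on single libraries. It dropped to 2 on leaving out any of ammonium replicates 2 and 3 and nitrate replicates 1 and 3, to 3 without nitrate replicate 2, and was 5 without ammonium replicate 1. Without both end libraries, a fit added after the data were seen, 11 members were lower (33.3 percent) and 1 was higher (3.03 percent), while 21.0 percent of all genes were lower and 19.6 percent higher.

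Small differences ran mostly downward. Fold changes were below 0 in 25 of 33 members (75.8 percent, beside 49.4 percent of all genes tested), and their median was -0.20 on the log2 scale, beside 0.01 for all genes tested. In 13 members (39.4 percent) all 3 nitrate libraries lay below all 3 ammonium libraries, which was seen in 17.9 percent of all genes tested. The reverse held for 2 members, the seryl gene GL15281-G and the formyltransferase GL15239-G, and for 19.1 percent of genes tested. The 29 synthetases alone had a median of -0.29, with 24 below 0. These counts describe the list and were not tested as a set.

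**Figure D1:**
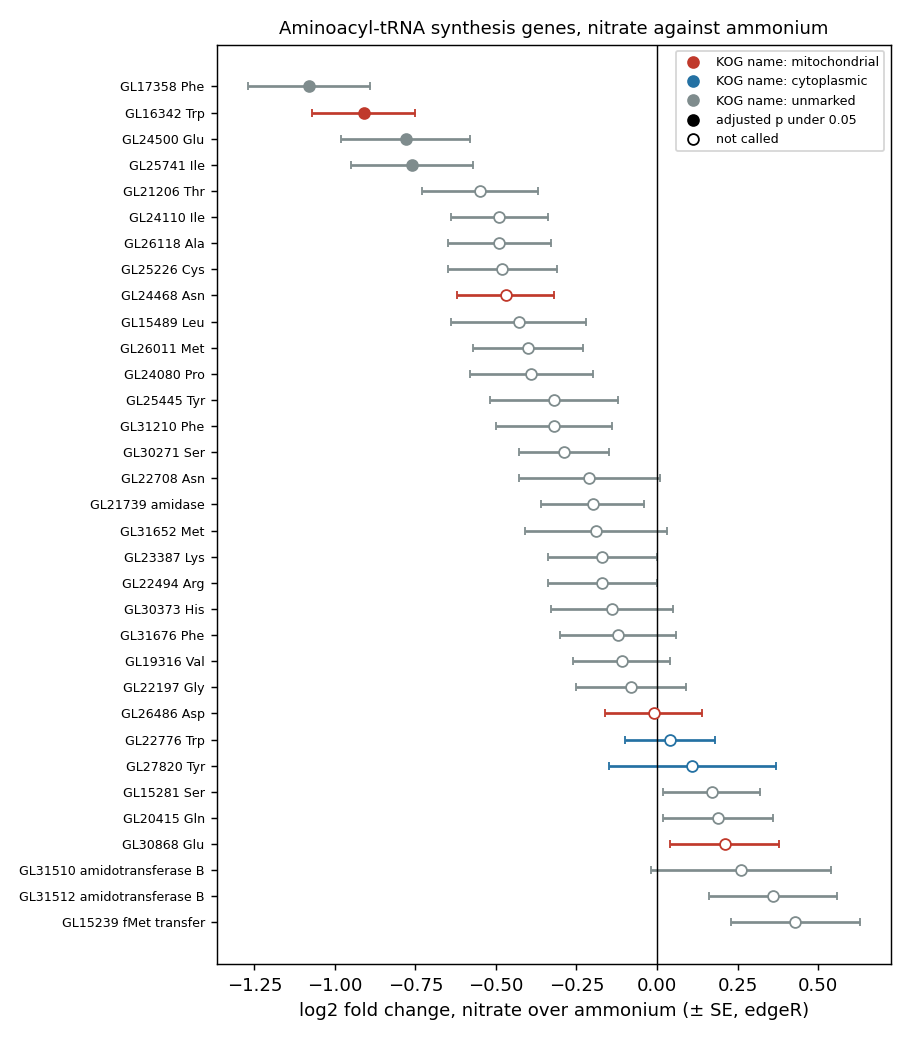
Log2 fold change of each of the 33 genes, nitrate over ammonium, with its SE (edgeR, n = 3 and 3). Filled points mark the 4 genes with an adjusted p under 0.05, all to the left of 0, and colours give the compartment word in the KOG name.

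GL17358-G, described as a phenylalanyl-tRNA synthetase with GO identifiers for the mitochondrial matrix, fell furthest. It lies on scaffold 4 at 756273 to 757755, minus strand. Its level was 13.1, 10.1 and 11.7 FPKM in ammonium replicates 1 to 3 and 4.31, 6.34 and 6.03 FPKM in nitrate replicates 1 to 3. Every nitrate library stood below every ammonium library (edgeR log2 fold change -1.08 ± 0.19, SE, with adjusted p = 0.0102). The call held without any single library (adjusted p = 0.0196 to 0.0479). The gene model shares 272 bases with GL19826-G, a GrpE-family chaperone on the opposite strand at 87.0 ± 10.7 and 69.0 ± 0.742 FPKM (SD, n = 3 and 3). Whether counting used strand is not given in the sources used here, so reads from the shared bases cannot be told apart.

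GL16342-G, named the mitochondrial tryptophanyl-tRNA synthetase, lies on scaffold 21 at 576027 to 577449, plus strand. Its level was 34.8, 28.5 and 28.7 FPKM in ammonium and 13.7, 17.4 and 18.3 FPKM in nitrate, so the groups were well separated. The log2 fold change was -0.91 ± 0.16 (SE, adjusted p = 0.00916, edgeR). This call, too, held without any single library (adjusted p = 0.0183 to 0.0392). No other gene model overlaps it.

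The glutamyl-tRNA synthetase GL24500-G lies on scaffold 4 at 1254319 to 1257017, minus strand. It carries GO identifiers for both the cytosol and the mitochondrion. Its level was 45.8, 43.8 and 60.2 FPKM in ammonium and 23.6, 35.3 and 29.2 FPKM in nitrate. The groups did not overlap, with ammonium replicate 3 highest and nitrate replicate 1 lowest (edgeR log2 fold change -0.78 ± 0.20, SE, with adjusted p = 0.0343). It passed only without ammonium replicate 1 and without nitrate replicate 2 among the 6 fits on 5 libraries (other adjusted p-values 0.0631 to 0.121, edgeR).

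The isoleucyl-tRNA synthetase GL25741-G, with GO identifiers for the cytosol alone, lies on scaffold 7 at 468291 to 471935, plus strand. It stood at 24.4, 23.4 and 32.3 FPKM in ammonium and 12.8, 18.6 and 16.3 FPKM in nitrate. Again ammonium replicate 3 was highest and nitrate replicate 1 lowest, with no overlap (edgeR log2 fold change -0.76 ± 0.19, SE, with adjusted p = 0.0348). Of those 6 fits it passed in 1, without ammonium replicate 1 (adjusted p up to 0.119 in the others). Neither GL24500-G nor GL25741-G passed with limma on log2(FPKM + 1), at adjusted p = 0.0503 and 0.0553.

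The members nearest to the threshold were 5 further synthetases, none of them called by edgeR. The second isoleucyl gene, GL24110-G, whose GO identifiers name the mitochondrion, was at 18.4, 16.8 and 16.3 FPKM in ammonium and 11.9, 13.6 and 11.5 FPKM in nitrate (adjusted p = 0.0584). The mitochondrial asparaginyl gene GL24468-G was at 20.4, 20.0 and 18.5 FPKM in ammonium and 12.5, 14.9 and 15.7 FPKM in nitrate (adjusted p = 0.0681). The alanyl gene GL26118-G was at 29.0, 32.4 and 35.8 FPKM and then at 23.9, 22.3 and 23.5 FPKM (adjusted p = 0.0839). In all of these the nitrate libraries lay below the ammonium libraries. The threonyl gene GL21206-G, at 59.2 ± 5.88 and 41.1 ± 9.38 FPKM (SD, n = 3 and 3), and the cysteinyl gene GL25226-G, at 23.2 ± 1.94 and 16.8 ± 3.52 FPKM, likewise did not overlap (adjusted p = 0.0852 and 0.0935). DESeq2 called the first 4 of these 5 lower (adjusted p = 0.0227 to 0.0458), but not GL25226-G (adjusted p = 0.0582). Without both end libraries GL24110-G and GL26118-G passed in edgeR (adjusted p = 0.0261 and 0.0035), while GL24468-G, GL21206-G and GL25226-G did not.

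**Figure D2:**
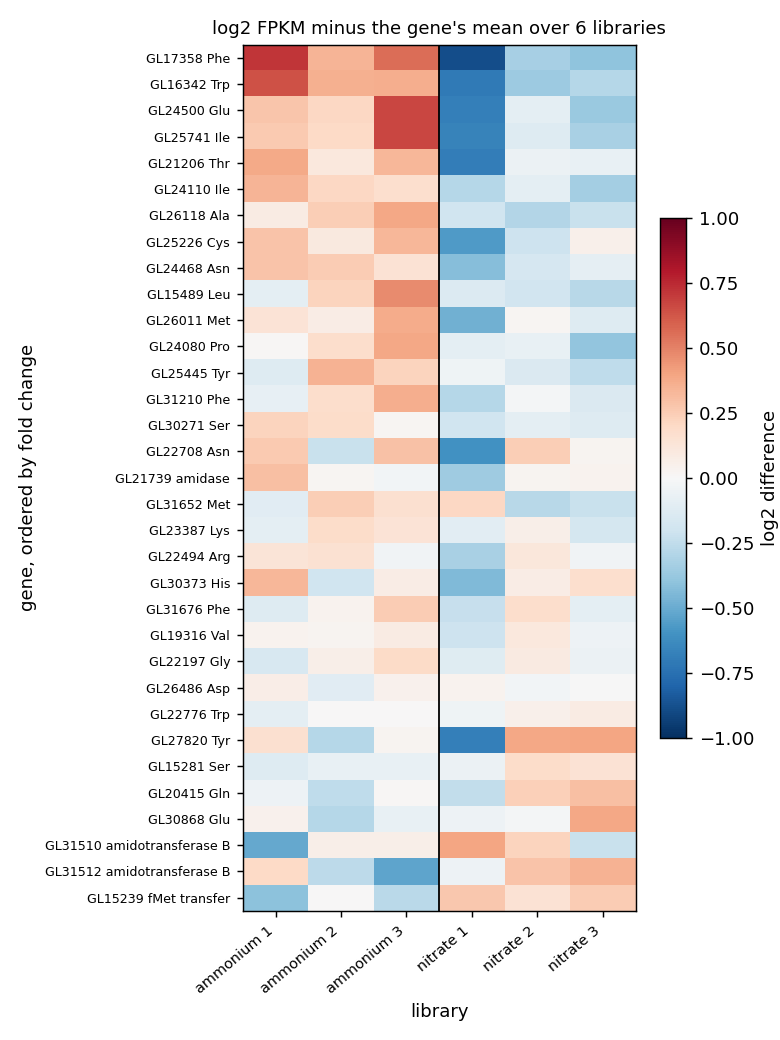
Log2 FPKM of each gene minus its mean over the 6 libraries, with genes ordered by fold change and a line between the groups. The uppermost rows are red in ammonium and blue in nitrate, and the nitrate replicate 1 column holds the lowest of the 6 values in 17 of 33 genes.

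Levels spanned about an order of magnitude. FPKM is per gene length, so levels can be set side by side. The highest mean over the 6 libraries was that of the seryl gene GL15281-G, at 106.4 FPKM, followed by the arginyl gene GL22494-G at 87.8 FPKM. Next came the lysyl gene GL23387-G at 69.3 FPKM, the cytoplasmic tryptophanyl gene GL22776-G at 60.3 FPKM and the prolyl gene GL24080-G at 51.2 FPKM. The lowest were GL17358-G at 8.59 FPKM and the subunit B model GL31510-G at 8.75 FPKM.

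The order among neighbours was not firm throughout, as GL22776-G exceeded GL23387-G in nitrate replicate 3, at 63.8 and 61.1 FPKM. GL15281-G stood above GL22494-G in every library, although their ammonium ranges met, at 97.2 to 100.9 and 85.2 to 97.2 FPKM. In nitrate they were 101.8 to 120.5 and 69.5 to 94.5 FPKM. None of the 5 most abundant genes was called. GL22494-G was at 95.3, 97.2 and 85.2 FPKM in ammonium and 69.5, 94.5 and 85.1 FPKM in nitrate (edgeR log2 fold change -0.17 ± 0.17, SE, with adjusted p = 0.521). GL23387-G was at 64.3, 78.5 and 75.9 FPKM and at 64.0, 71.8 and 61.1 FPKM (adjusted p = 0.558). GL24080-G was at 50.9, 57.0 and 65.9 FPKM and at 47.1, 47.9 and 38.5 FPKM, without overlap (-0.39 ± 0.19, adjusted p = 0.204). It passed without both end libraries (adjusted p = 0.0118).

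**Figure D3:**
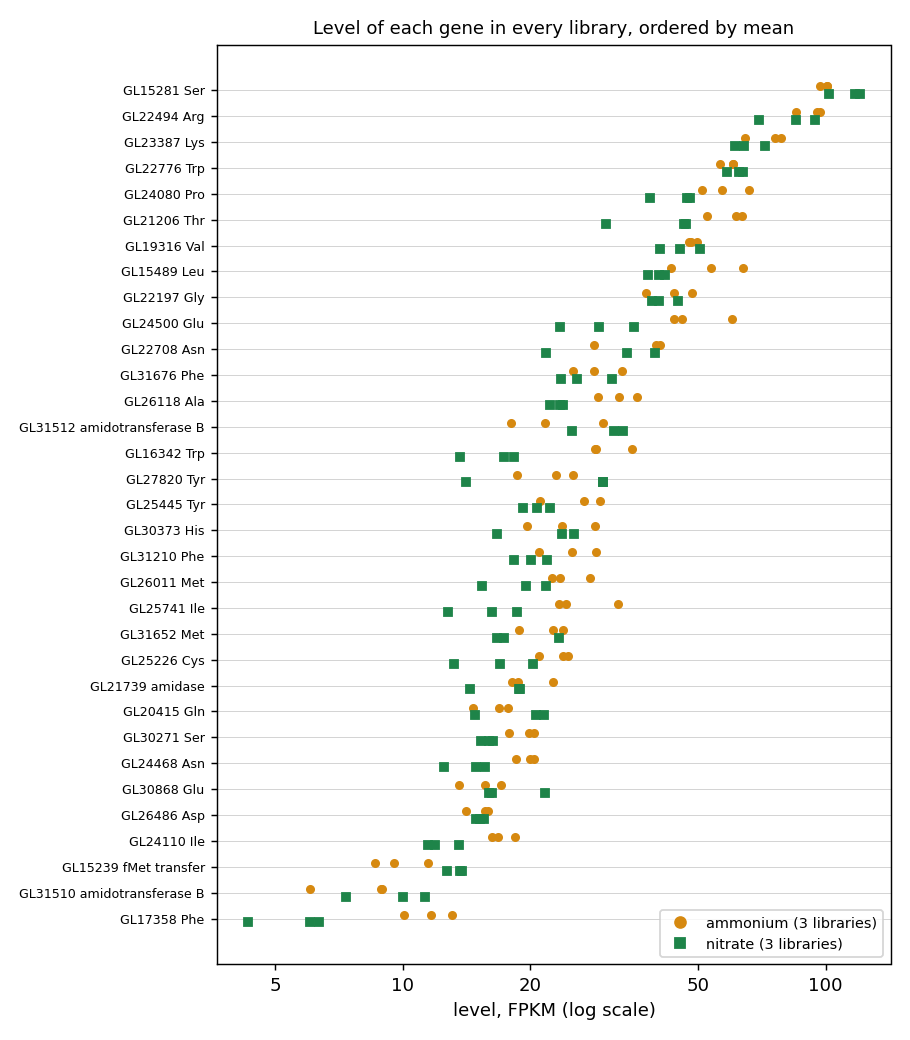
FPKM of each of the 33 genes in every library on a log axis, ordered by the mean over 6 libraries, with circles for ammonium and squares for nitrate. The means run from 8.59 FPKM (GL17358-G) to 106.4 FPKM (GL15281-G).

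The KOG names mark a compartment in 6 members, 4 as mitochondrial and 2 as cytoplasmic. Of the mitochondrial 4, the tryptophanyl gene was lower (25.0 percent, beside 8.13 percent of all genes). The asparaginyl, glutamyl and aspartyl genes of these 4 did not pass. Without both end libraries 1 of the mitochondrial 4 was lower (25.0 percent, beside 21.0 percent of all genes) and 0 higher. Neither of the cytoplasmic genes was called in either fit. Further values are for the mitochondrial 4. Their median log2 fold change was -0.24, beside -0.20 for the 29 members without that word. Their median level in ammonium was 17.6 FPKM, beside 25.8 FPKM for the others. The mitochondrial aspartyl gene GL26486-G was the steadiest, at 15.9, 14.1 and 15.7 FPKM in ammonium and 15.6, 14.9 and 15.2 FPKM in nitrate (edgeR log2 fold change -0.01 ± 0.15, SE, with adjusted p = 0.982). The cytoplasmic tyrosyl gene GL27820-G ranged more widely, at 25.3, 18.6 and 23.1 FPKM in ammonium and 14.1, 29.7 and 29.8 FPKM in nitrate. Nitrate replicate 1 was thus its lowest library and the other nitrate libraries its highest (adjusted p = 0.813).

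GO identifiers, used after the annotation had been seen, divide the members further. A cytosol or cytoplasmic translation identifier without a mitochondrial one was carried by 12 members, with a median log2 fold change of -0.36. Of these 1 was lower (8.33 percent, near the 8.13 percent of all genes). At an unadjusted edgeR p under 0.05 there were 4 lower (33.3 percent, beside 15.9 percent of all genes). DESeq2 called 2 lower (16.7 percent, beside 10.8 percent). Without both end libraries 4 were lower (33.3 percent, beside 21.0 percent) and 0 higher. In 6 of the 12 all nitrate libraries lay below all ammonium libraries, which was seen in 17.9 percent of all genes tested. A mitochondrial identifier without a cytosolic one was carried by 13, of which 2 were lower (15.4 percent), with a median of -0.20. In that class 5 were lower at the unadjusted p, 5 by DESeq2 and 5 without both end libraries (38.5 percent each). The fit without both end libraries also called 1 of the 13 higher (7.69 percent). In 6 of the 13 (46.2 percent) all nitrate libraries lay below all ammonium libraries. Another 5 carried both, of which 1 was lower (20.0 percent), and 3 carried neither. The mitochondrial class includes the alanyl, arginyl and valyl genes, each the only member for its amino acid. The 4 lower genes thus included members with identifiers of either compartment.

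Pairs of genes for the same amino acid allow a mitochondrial enzyme to be set against a partner within the same library. The mitochondrial aspartyl gene GL26486-G has no partner among the members. Aspartyl rows without the KEGG entry, such as GL30934-G below, were not paired. By KOG name there were 3 such pairs, and the ratio differed in opposite directions in the tryptophan and glutamate pairs. For tryptophan, the log2 ratio of GL16342-G to its cytoplasmic partner GL22776-G was -0.70, -1.09 and -1.08 in ammonium and -2.09, -1.84 and -1.80 in nitrate. The partner itself was at 56.4, 60.5 and 60.5 FPKM in ammonium and 58.4, 62.3 and 63.8 FPKM in nitrate (edgeR log2 fold change 0.04 ± 0.14, SE, with adjusted p = 0.864). The mitochondrial share of the tryptophan pair was thus lower in every nitrate library, with a mean difference of -0.96 on the log2 scale.

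For glutamate it was the other way round by KOG name. The mitochondrial label of GL30868-G rests on that name alone, as it carries no GO identifier of either compartment. Its partner GL24500-G carries identifiers of both, so by GO the pair does not set mitochondrion against cytosol. GL30868-G was at 17.1, 13.6 and 15.7 FPKM in ammonium and 16.0, 16.3 and 21.7 FPKM in nitrate (edgeR log2 fold change 0.21 ± 0.17, SE, with adjusted p = 0.428), while its partner GL24500-G fell. The log2 ratio of GL30868-G to GL24500-G was -1.42, -1.69 and -1.94 in ammonium and -0.56, -1.11 and -0.43 in nitrate, a difference of 0.98. For asparagine the log2 ratio of GL24468-G to GL22708-G overlapped between the groups, with means of -0.87 ± 0.33 and -1.11 ± 0.30 (SD, n = 3 and 3). GL22708-G stood at 39.8, 28.4 and 40.7 FPKM in ammonium and at 21.8, 39.5 and 33.9 FPKM in nitrate (adjusted p = 0.559).

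With 3 libraries a group, the smallest p that an exact permutation test allows is 0.1, and the tryptophan and glutamate pairs both reached it (two-sided, adjusted p = 0.15 over the 3 pairs). The asparagine pair gave an exact permutation p of 0.5. No pair could therefore pass the threshold by this test. In the 6 recomputations that each left out a library, the tryptophan difference lay between -1.02 and -0.83 and the glutamate difference between 0.85 and 1.19.

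By GO identifiers 5 further pairs could be formed, for 4 amino acids. The phenylalanyl gene GL17358-G was set against each of GL31210-G and GL31676-G, both described as the beta subunit of the phenylalanyl enzyme. Their KEGG entries differ, K01889 for GL31210-G, as for GL17358-G, and K01890 for GL31676-G. They may therefore not both be beta subunits. Cytosolic phenylalanyl-tRNA synthetase is built of alpha and beta subunits, whereas the mitochondrial enzyme is a single chain. GL31210-G was at 24.9 ± 3.84 and 20.2 ± 1.88 FPKM (SD, n = 3 and 3, adjusted p = 0.25) and GL31676-G at 28.9 ± 3.87 and 27.0 ± 3.89 FPKM (adjusted p = 0.696). The log2 ratio of GL17358-G was lower in nitrate by a mean difference of -0.78 against GL31210-G and -0.98 against GL31676-G. Neither ratio overlapped between the groups. GL31210-G passed without both end libraries (adjusted p = 0.0405, edgeR). GL31210-G and GL31676-G lie 10672 bases apart on scaffold 6.

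The ratio of the seryl genes was also lower in nitrate, although neither gene was called. GL30271-G, whose GO identifiers name the mitochondrion, was at 20.4, 19.9 and 17.8 FPKM in ammonium and 15.3, 16.4 and 16.0 FPKM in nitrate (edgeR log2 fold change -0.29 ± 0.14, SE, with adjusted p = 0.204). Its cytosolic partner GL15281-G was at 97.2, 100.9 and 100.8 FPKM and at 101.8, 120.5 and 117.3 FPKM (0.17 ± 0.15, adjusted p = 0.49). Their log2 ratio did not overlap between the groups, at -2.36 ± 0.12 and -2.83 ± 0.08 (SD, n = 3 and 3). Serine and both phenylalanine pairs reached the smallest exact permutation p of 0.1 (adjusted p = 0.167 over the 5 pairs). Isoleucine and methionine ratios overlapped, with differences of 0.27 and 0.19 (exact permutation p = 0.5 and 0.7). The isoleucine difference was 0.09 without ammonium replicate 3 and 0.14 without nitrate replicate 1, and the methionine difference was -0.10 without nitrate replicate 1. The methionine genes were GL31652-G, at 21.8 ± 2.74 and 19.2 ± 3.69 FPKM, and GL26011-G, at 24.7 ± 2.73 and 18.9 ± 3.23 FPKM (adjusted p = 0.602 and 0.145). GL31652-G was lower without both end libraries (adjusted p = 0.0151, edgeR).

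**Figure D4:**
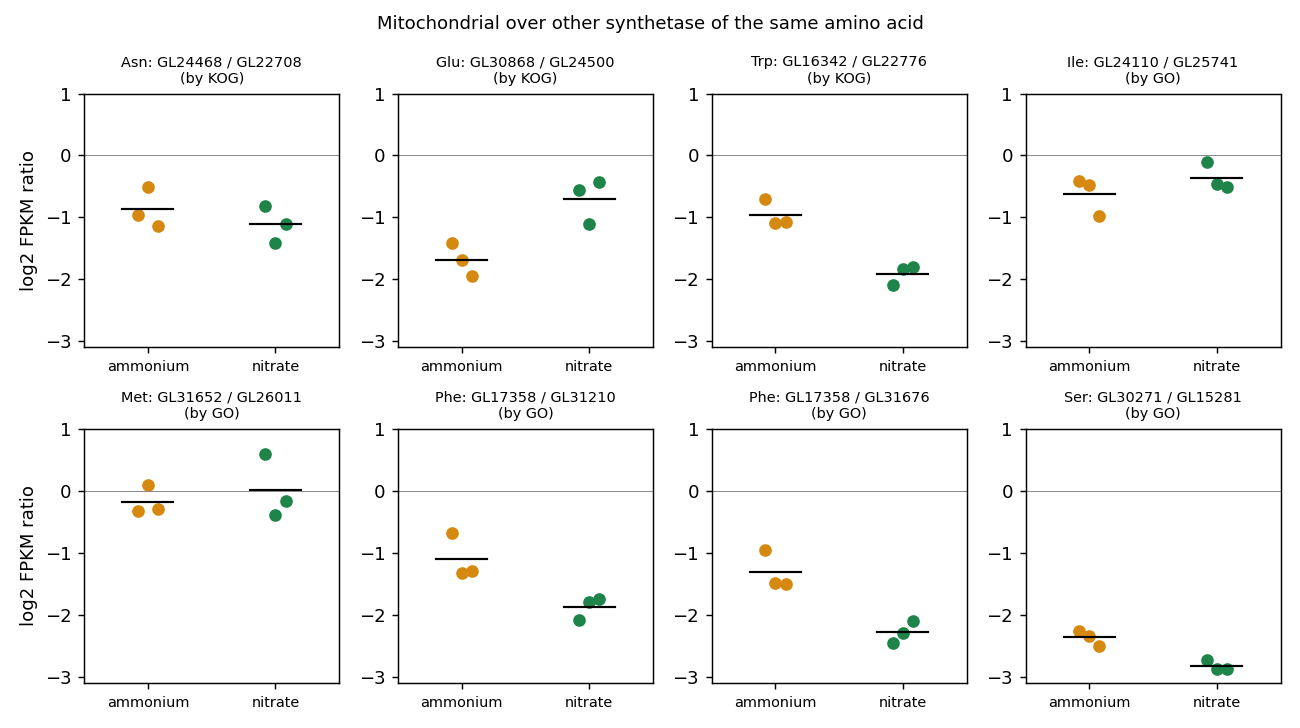
Log2 FPKM ratio of the mitochondrial synthetase to another synthetase of the same amino acid in each library, with lines at group means, for 3 pairs by KOG name and 5 by GO identifier. The groups did not overlap in 5 of the 8 pairs, of which the glutamate ratio alone was higher in nitrate. These pairs are not independent, as GL17358-G is in both phenylalanine pairs. The tryptophan, glutamate and phenylalanine pairs each hold a gene that was itself called lower. No share was computed for other gene pairs.

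Members that act on charged tRNA gave positive fold changes in 3 of 4 genes, none of them called. Of all 11993 genes tested, 6073 were above 0. The 3 include both neighbouring models described as subunit B. The methionyl-tRNA formyltransferase GL15239-G was at 8.61, 11.5 and 9.53 FPKM in ammonium and 13.8, 12.7 and 13.7 FPKM in nitrate. Its groups did not overlap (log2 fold change 0.43 ± 0.20, SE, adjusted p = 0.18, edgeR). The models described as amidotransferase subunit B, GL31510-G and GL31512-G, lie 984 bases apart on the plus strand of scaffold 6. GL31512-G was at 29.8, 21.7 and 18.0 FPKM in ammonium and 25.1, 31.6 and 33.1 FPKM in nitrate (0.36 ± 0.20, adjusted p = 0.251). Without both end libraries it was the member called higher (adjusted p = 0.0118). GL31510-G was at 7.95 ± 1.67 and 9.55 ± 2.01 FPKM (SD, n = 3 and 3, adjusted p = 0.569), and it shares 282 bases with the opposite-strand model GL31147-G. The amidase GL21739-G, whose GO identifiers include that of the amidotransferase reaction, was at 19.8 ± 2.48 and 17.4 ± 2.55 FPKM (adjusted p = 0.418).

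None of the remaining members was called by edgeR. The leucyl gene GL15489-G was at 43.0, 53.7 and 63.8 FPKM in ammonium and 41.8, 40.3 and 38.0 FPKM in nitrate, without overlap (edgeR log2 fold change -0.43 ± 0.21, SE, with adjusted p = 0.194). The tyrosyl gene GL25445-G, which carries GO identifiers for both compartments, was at 25.8 ± 4.21 and 20.8 ± 1.51 FPKM (SD, n = 3 and 3, adjusted p = 0.307). GL15489-G and GL25445-G passed without both end libraries (adjusted p = 0.00466 and 0.0128). The histidyl gene GL30373-G, the valyl gene GL19316-G and the glycyl gene GL22197-G, of which the yeast counterparts serve both compartments, had log2 fold changes of -0.14 ± 0.19, -0.11 ± 0.15 and -0.08 ± 0.17. The glutaminyl gene GL20415-G was at 16.9, 14.7 and 17.7 FPKM in ammonium and 14.8, 20.7 and 21.6 FPKM in nitrate (adjusted p = 0.466).

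Outside these 33 genes, 5 rows of the table are described as aminoacyl-tRNA synthetases without the KEGG entry. None of the 4 tested was called (edgeR), and DESeq2 called 0 of the 4. At an unadjusted p under 0.05 there was 1, while 16.0 percent of all genes tested were higher and 15.9 percent lower. Without both end libraries 1 was higher (25.0 percent, beside 19.6 percent of all genes). It was the aspartyl-tRNA synthetase GL21592-G (adjusted p = 0.0255, edgeR), at 4.05 ± 1.08 and 6.56 ± 1.9 FPKM (SD, n = 3 and 3). An aspartyl-tRNA synthetase, GL30934-G, was the most abundant, at 311.8, 289.1 and 349.7 FPKM in ammonium and 128.7, 330.0 and 220.8 FPKM in nitrate (adjusted p = 0.285). It exceeded every one of the 33 members in level, and its groups overlapped through nitrate replicate 2. Of 3 rows matched by words for amino acid starvation signalling, none was called (edgeR, with 0 at an unadjusted p under 0.05 and 0 by DESeq2, and 0 without both end libraries), and apart from GCN2 they are histone acetyltransferases. The kinase GCN2, GL21174-G, was at 13.2, 12.5 and 15.2 FPKM in ammonium and 13.0, 12.3 and 11.6 FPKM in nitrate (edgeR log2 fold change -0.15 ± 0.16, SE, with adjusted p = 0.567).

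Genes of other steps of translation had medians at or just above 0. Of 19 tested genes of tRNA modification and processing, 3 were higher and none was lower (edgeR, with 4 at an unadjusted p under 0.05, and 4 higher and 0 lower by DESeq2), with a median log2 fold change of 0.13. At the unadjusted p 15.9 percent of all genes tested were lower and 16.0 percent higher. The list's share higher was 15.8 percent, beside 7.5 percent of all genes, and 21.1 percent by DESeq2, beside 10.7 percent. Without both end libraries 6 were higher (31.6 percent) and 0 lower, beside 19.6 and 21.0 percent of all genes. The 3 called with all libraries were the tRNA methyltransferase subunit GL23799-G, the dimethylguanosine methyltransferase GL18176-G and the dihydrouridine synthase GL24014-G (adjusted p = 0.026, 0.0285 and 0.0476, edgeR). Each call was lost in at least 4 of the 6 fits without a library. GL23799-G went from 19.7 ± 0.476 to 30.4 ± 2.44 FPKM, GL18176-G from 6.12 ± 1.79 to 12.7 ± 3.08 FPKM and GL24014-G from 12.4 ± 1.46 to 19.4 ± 1.03 FPKM (SD, n = 3 and 3). GL23799-G overlaps a gene model on the opposite strand. Of 39 tested rows matched by words for translation initiation factors, 3 were higher and none was lower (edgeR), with a median of 0.09. At an unadjusted edgeR p under 0.05 there were 5, 1 of them lower (2.56 percent). Among all genes tested 15.9 percent were lower and 16.0 percent higher at that p. DESeq2 called 3 higher (7.69 percent, beside 10.7 percent of all genes) and 1 lower (2.56 percent, beside 10.8 percent). The match takes in the kinase GCN2 and rows described as eIF-2C and related proteins, so the counts are not of initiation factors alone. The gene lower at the unadjusted p and by DESeq2, GL31293-G, is of the eIF-2C type. The share higher was 7.69 percent, near the 7.5 percent of all genes. Without both end libraries 8 were higher (20.5 percent) and 5 lower (12.8 percent), beside 19.6 and 21.0 percent of all genes. The eIF-4G type GL21587-G went from 1.15 ± 0.21 to 3.43 ± 0.951 FPKM (SD, n = 3 and 3, adjusted p = 0.00821), a call that held without any single library. The eIF-2C type GL15827-G and the eIF-2B epsilon subunit GL24681-G had adjusted p-values of 0.0122 and 0.0297, and passed in 4 and 1 of those 6 fits. Of 19 elongation and release factors none was called (edgeR, with 1 at an unadjusted p under 0.05, and 1 lower and 0 higher by DESeq2), with a median of 0.02. The share lower was 5.26 percent both at the unadjusted p and by DESeq2, beside 15.9 and 10.8 percent of all genes. Without both end libraries 4 of the 19 factors were lower (21.1 percent, near the 21.0 percent of all genes). In the same fit 1 was higher (5.26 percent, beside 19.6 percent of all genes). The lower 4 were the mitochondrial elongation factors GL31201-G and GL19313-G (adjusted p = 0.0233 and 0.00523), GL29943-G, and elongation factor 2, GL29988-G (adjusted p = 0.0289 and 0.0287, edgeR). The mitochondrial EF-Ts, GL29500-G, was higher in that fit (adjusted p = 0.0305, edgeR). GL29943-G is described as polypeptide release factor 3, as is GL31365-G, but their KEGG entries differ (K03231 and K03267). The description of GL29943-G may therefore not name the right protein.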

How the data were processed

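RNA was sequenced on the Illumina platform after mRNA isolation, per the labels' protocols. The authors deposited 1 table with raw counts per gene and library, per the file headers. It also holds TPM and FPKM values computed by the authors, per the file headers. Tests used the counts, levels are the deposited FPKM, and TPM were not used further. For the aligner, counter, genome build, annotation and use of strand, the entry is: not given in the sources used here. No sequence was used. Scaffold positions are those of the deposited table. Mycelial markers were not examined.

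Members are all rows whose KEGG column holds the aminoacyl-tRNA biosynthesis map. The members and lists were chosen with earlier results of these data known. Libraries were grouped by title, and counts were tested with edgeR 4.0.16 in R 4.3.3 (quasi-likelihood, TMM factors, filterByExpr, robust estimates, Benjamini-Hochberg over 11993 genes, adjusted p under 0.05). Positive fold changes mean higher in nitrate. On simulated counts for 11993 genes, 36 percent of 2-fold and 96 percent of 4-fold changes were called. Pairs were compared by exact permutation (scipy 1.17.1).

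The text names all called members, the 5 nearest to the threshold, the 5 most abundant, both genes of each pair and called genes of the other lists. Other genes, the GO classes and the GO pairs were chosen after their values or annotation were seen. Alternatives were DESeq2 1.42.0, limma 3.58.1 on log2(FPKM + 1) and log2(FPKM + 0.1) for genes of at least 1 FPKM in 3 libraries, RLE factors, other count filters, count ratios for pairs, a replicate block and leaving libraries out.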

Additional observations from a re-analysis of the deposited data

How the results depend on the processing

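The count of 4 lower members was 8 with DESeq2 and 2 with limma at either pseudocount, and 4 with RLE factors, without a count filter or with 50 counts in 3 libraries. Leaving out 1 library gave 2 to 5 lower members and 655 to 1946 called genes in the whole table, beside 1874. GL16342-G and GL17358-G were called in all 6 of those fits. Without both end libraries, 11 members were lower and 1 higher of 4898 genes called. The cause was not tested. Members below 0 numbered 24 to 26 under every alternative run.

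With the replicate block, 0 members and 225 of all genes were called (edgeR). Same-numbered libraries did not deviate together (correlations of -0.66, -0.349 and -0.458), so the numbers are not treated as pairs. The methionine ratio difference reversed to -0.10 without nitrate replicate 1 (range -0.10 to 0.40 over the left-out libraries). In the simulation 2-fold changes were often missed, so uncalled members may still differ. Its libraries were drawn independently, without the axis shared within groups.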
